A study of Mus musculus with 12 samples.

Results

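The comparison described here set TKO against the wild type (WT) in primordial germ cell-like cells (PGCLCs) of the mouse, whatever the time for which TKO had been primed. The average of the 3 TKO group means was contrasted with the WT mean for each of 16178 tested genes, out of 35975 genes in the files. Genes were called where the p adjusted by Benjamini-Hochberg was below 0.05 in edgeR's two-sided quasi-likelihood test, with no minimum fold change. The average was called for 1270 genes, and 1137 of these had 1 sign at all 3 priming times. A narrower set of 107 genes was called in the average and also in each of the 3 separate comparisons with WT, always in 1 direction. These 107 genes are the members on which most of the text rests. All 12 libraries of the series entered, 3 of WT and 9 of TKO.

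All cultures came from E14TG2a, a mouse embryonic stem cell line grown in medium with LIF, inhibitors of GSK3 and MEK, and vitamin C, as WT or as cells labelled TKO. The labels do not spell TKO out. From general knowledge of the study, not from the labels, it is taken here as a triple knockout of the DNA methyltransferase genes Dnmt1, Dnmt3a and Dnmt3b, called the targeted genes on that reading. Stem cells were primed to epiblast-like cells (EpiLCs) for 40 h (WT_40h, TKO_40h), 48 h (TKO_48h) or 96 h (TKO_96h) and then induced for 4 days in aggregates with BMP4, BMP8, SCF, EGF and LIF, with 3 biological replicates in each of the 4 groups. WT was primed for 40 h only, so at 48 and 96 h genotype and priming time cannot be told apart, and the 3 comparisons share the same 3 WT libraries. The labels name no separate clones of TKO, so it may be 1 line, and whether cells were sorted before RNA extraction is not said. In such bulk samples, fewer cells of a type and less RNA per cell cannot be told apart.

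DNA methylation in mammals is placed on cytosines of CG dinucleotides. DNMT3A and DNMT3B methylate new sites, with DNMT3L as a cofactor that has no catalytic activity of its own, and DNMT1, guided by UHRF1, copies the marks to new strands after replication. Methylation rises as naive stem cells move toward the epiblast, and it is lost again in primordial germ cells, the founders of eggs and sperm. Promoters of many germline genes, imprinted regions and transposons are known to be held silent by it.

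Libraries held 6570180 to 9114128 estimated counts. Correlations between replicates of a group ran from 0.943 to 0.965, and the biological coefficient of variation was 0.241. TKO_96h lay apart from the other groups on the first principal component (23.2% of the variance). TKO_48h replicate 1 lay apart on the second (-73.3, against -21.9 to 30.2 in the other 11 libraries) and had the fewest genes with at least 10 counts, 13562 against 14482 to 15459. Without it the average was called for 1292 genes, and 86 genes were called at each time, 69 of them among the 107. The summed level of 14 germ cell-like markers was 1360 to 1430 CPM, the counts relative to TMM library sizes, in WT and 1420 to 1850 in TKO. Most of that sum was Pou5f1 (486 to 504 CPM in WT, 496 to 915 in TKO), Sox2 (240 to 284, 227 to 288) and Nanog (209 to 235, 233 to 312). These are also pluripotency genes, so the sum is not specific to germ cells. Among the 14 markers, Nanos3, an RNA-binding regulator of germ cell survival, stayed between 0.528 and 4.68 CPM in all 12 libraries, and the X-linked homeobox gene Rhox5 between 0 and 2.1 CPM. Others of the list were higher. Alpl stood at 165 to 178 CPM in WT and 157 to 274 in TKO, and Kit at 80.6 to 127 and 55.4 to 99.4. Tfap2c stood at 40.1 to 55.7 CPM in WT and 22 to 74.3 in TKO. Prdm1 stood at 22.3 to 34 and 7.14 to 38.4, and Prdm14 at 13.8 to 17.8 and 9.12 to 22.

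Promoters are shown for 3 of the 107 genes because these genes were called at each time under all the fits tried, were not targeted, and have a single start site in RefSeq's promoter table (GRCm38.p6). The windows cover 250 bases before to 50 bases after the start, and capitals mark CG, the dinucleotide on which DNA methyltransferases act. Dcdc2a, a doublecortin-domain gene linked to cilia, has its window at chr13:25055754-25056053 on the plus strand, with 24 CG. L3mbtl2, a histone-binding subunit of the polycomb complex PRC1.6, has it at chr15:81663639-81663938 on the plus strand, with 17 CG. Tenm3, a teneurin that guides nerve cell contacts, has it at chr8:48674641-48674940 on the minus strand, with 10 CG.
Dcdc2a: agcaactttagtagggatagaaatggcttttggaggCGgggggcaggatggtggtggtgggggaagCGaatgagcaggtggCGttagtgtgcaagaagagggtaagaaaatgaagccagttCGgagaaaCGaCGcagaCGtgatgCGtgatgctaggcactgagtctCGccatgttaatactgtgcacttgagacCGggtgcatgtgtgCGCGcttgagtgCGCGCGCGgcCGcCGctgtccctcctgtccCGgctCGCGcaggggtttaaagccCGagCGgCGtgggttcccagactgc
L3mbtl2: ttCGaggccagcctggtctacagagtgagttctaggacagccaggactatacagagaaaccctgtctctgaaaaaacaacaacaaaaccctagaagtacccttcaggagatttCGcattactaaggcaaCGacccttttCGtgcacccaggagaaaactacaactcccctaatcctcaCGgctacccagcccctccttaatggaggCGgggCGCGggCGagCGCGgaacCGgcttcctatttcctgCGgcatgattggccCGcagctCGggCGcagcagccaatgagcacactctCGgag
Tenm3: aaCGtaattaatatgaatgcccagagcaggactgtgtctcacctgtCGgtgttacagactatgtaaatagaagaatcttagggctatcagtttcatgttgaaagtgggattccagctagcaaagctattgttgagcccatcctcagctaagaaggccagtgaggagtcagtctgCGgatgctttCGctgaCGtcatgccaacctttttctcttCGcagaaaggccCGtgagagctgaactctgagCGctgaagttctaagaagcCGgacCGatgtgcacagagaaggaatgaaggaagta
RefSeq's table held a promoter for 81 of the 107 genes (75.7%) and for 11788 of the 16178 tested genes (72.9%). Both shares are under 80%, so a comparison of CG content between the members and all tested genes is void and is not given.

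The targeted genes were lower in every TKO library than in every WT library. Dnmt3a (ENSMUSG00000020661.15, GRCm38 chr12:3806007-3914443) stood at 358, 436 and 422 CPM in WT, at 59.7 to 67 in TKO at 40 h, 25.4 to 48.7 at 48 h and 57.4 to 73.1 at 96 h. Its average log2 fold change was -2.95 (SE 0.12, adjusted p = 6.8e-12). Dnmt3b (ENSMUSG00000027478.15, chr2:153649450-153687730) stood at 157, 215 and 183 CPM in WT and between 13.4 and 55.4 in the 9 TKO libraries, an average of -2.60 (SE 0.12, adjusted p = 5.7e-11). Dnmt1 (ENSMUSG00000004099.16, chr9:20907209-20959888) stood at 441, 426 and 450 CPM in WT and between 64.9 and 152 in TKO, an average of -1.93 (SE 0.12, adjusted p = 2.8e-09). RNA of all 3 genes was thus still counted in TKO, at 0.134, 0.177 and 0.267 times the WT mean for Dnmt3a, Dnmt3b and Dnmt1. The 3 differences were not the same at each priming time: all 3 genes were lowest in TKO_48h, and the test between the TKO times gave adjusted p = 0.0016 for Dnmt3a, 7e-05 for Dnmt3b and 0.0083 for Dnmt1.

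Of the other DNA methylation genes, Dnmt3l and Uhrf1 rose in the average. Dnmt3l, the catalytically inactive cofactor, stood at 154, 132 and 135 CPM in WT, at 441 to 465 in TKO at 40 h, 274 to 372 at 48 h and 157 to 177 at 96 h. No TKO library overlapped WT, yet the log2 fold change went from 1.69 at 40 h to 1.26 at 48 h and 0.26 at 96 h, and the last was not called, so Dnmt3l is not among the 107. Uhrf1 had a mean of 356 CPM (SD 18.4, n = 3) in WT and of 498 over the TKO groups, an average log2 fold change of 0.47 (SE 0.08, adjusted p = 0.0019). Of the list of 20 writers, readers and erasers, these were the 2 genes that rose, the 3 targeted genes fell, and the other 15 were not called. The list's median was -0.04, against -0.02 over all tested genes, and 25% of it was called, against 7.85% of all tested genes.

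**Figure D1:**
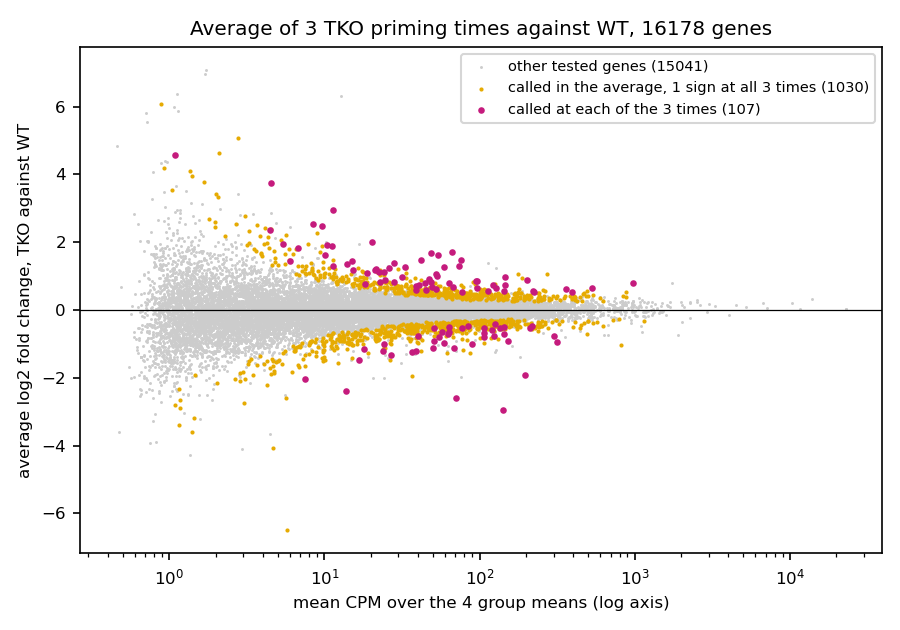
Average log2 fold change of TKO against WT (vertical axis) by mean level over the 4 groups in CPM (horizontal log axis) for 16178 genes. Magenta points are the 107 genes called at each priming time, orange points the other 1030 genes called in the average with 1 sign at all 3 times, and grey points the rest; the lowest orange point is Rpl30-ps9 at -6.50.

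Calls in the average covered 7.85% of tested genes, with 555 higher in TKO (3.43%) and 715 lower (4.42%). At an unadjusted p under 0.05 there were 3610. Of the 1270 genes, 262 changed at least 2-fold, 127 of them upward and 135 downward. The 1137 genes of 1 sign (7.03%) comprised 539 higher (3.33%) and 598 lower (3.7%). Among these 1137, 37 were called at none of the 3 priming times taken alone, 608 at 1, 385 at 2 and 107 at all 3. The separate comparisons with WT called 262 genes higher (1.62%) and 239 lower (1.48%) at 40 h. At 48 h they called 460 higher (2.84%) and 456 lower (2.82%), and at 96 h 1473 higher (9.1%) and 1626 lower (10.1%). A test between the 3 TKO groups called 3440 genes (21.3%), among them 514 of the 1137.

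The 107 genes called at each time made up 0.661% of those tested, 67 higher in TKO (0.414%) and 40 lower (0.247%). WT and TKO libraries did not overlap for any of them. Over all tested genes they did not overlap for 375 upward (2.32%) and 469 downward (2.9%). The calls at each time rest on these same values, so the lack of overlap is not separate support for them. A further 8 genes were called in all 3 comparisons with unlike signs. The smallest average among the members was -0.42, for Cbl, a ubiquitin ligase that turns off receptor kinases, and 33 of the higher and 14 of the lower genes reached 2-fold. At every single time, 21 higher and 6 lower genes reached it. Protein-coding genes numbered 102, and 5 were pseudogenes. By the largest of the 3 adjusted p-values, Mllt10 (0.0497), Uba1y (0.0497) and Sbf2 (0.0493) lay just inside the threshold, and Lefty1 (0.0505), Apobec2 (0.0507) and Mypn (0.0508) just outside.

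Of the 107 genes, 97 kept the call in the average in each of the 12 fits that left out 1 library, but only 21 kept the call at all 3 times. The number called at each time was 42 to 52 without 1 of the WT libraries, 52 to 58 without 1 of TKO_40h and 62 without TKO_48h replicate 3. Giving each gene its effective length as an offset left 15 of the 107 called at each time and 80 in the average. Through every left-out library and every other fit, 13 genes stayed called at each time. Upward these were Dcdc2a, Cdkn1c, Klhl13, Calcoco2, Aard, Acaa2, L3mbtl2 and AU018091, and downward Foxp1, Tenm3 and the 3 targeted genes.

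**Figure D2:**
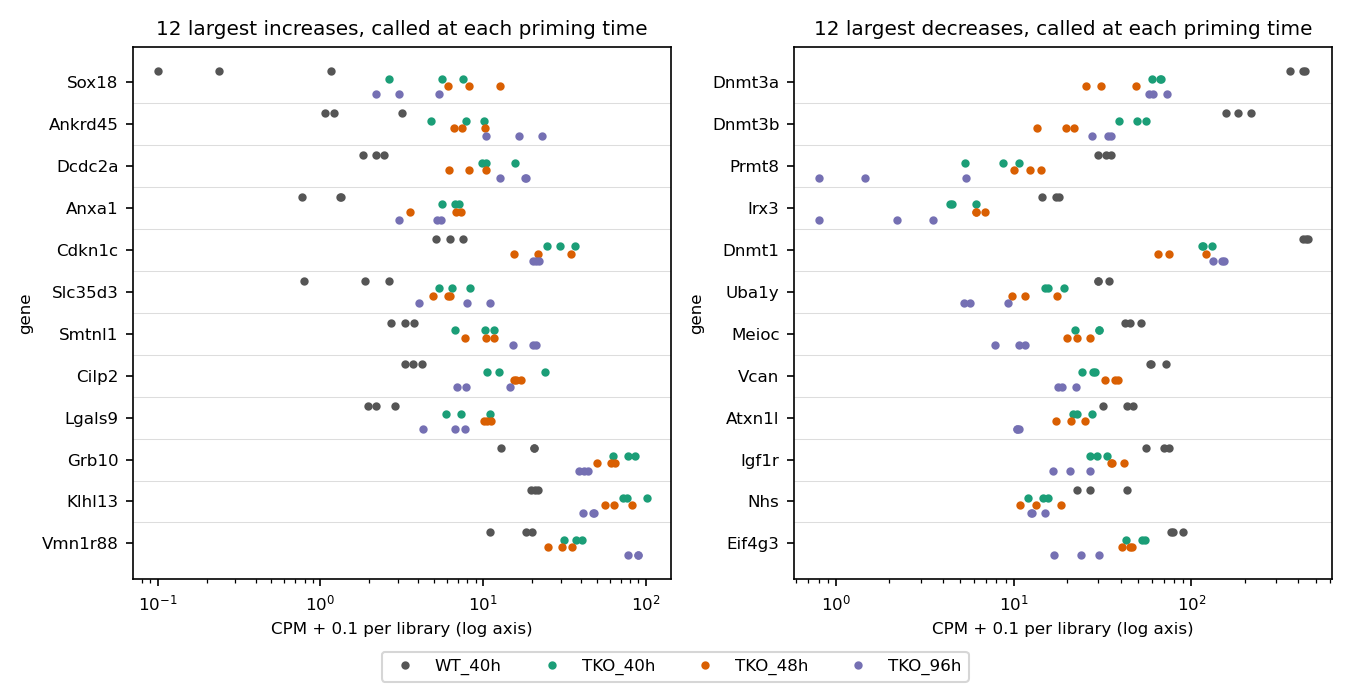
Level in each library as CPM plus 0.1 (log axis) of the 12 largest increases (left) and 12 largest decreases (right) named by rule; each point is 1 library, coloured by group. No TKO point overlaps the WT points of its gene, which the rule required of every gene drawn. Prmt8, Irx3 and Uba1y are lowest in TKO_96h.

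Among the genes that rose at every priming time, 2 cell cycle and growth regulators that are imprinted, with the maternal copy active, had clear separation. Cdkn1c (ENSMUSG00000037664.13, chr7:143458339-143461050) encodes p57, an inhibitor of cyclin-dependent kinases. Its level was 5.01, 6.14 and 7.46 CPM in WT, 24.6 to 36.5 in TKO at 40 h, 15.4 to 34.7 at 48 h and 20.1 to 22 at 96 h. The average log2 fold change was 2.00 (SE 0.24, adjusted p = 3.1e-05), and the TKO times were not called different (adjusted p = 0.27). Grb10 (ENSMUSG00000020176.17, chr11:11930508-12038683), an adaptor that restrains insulin and IGF receptor signalling, stood at 12.8, 20.6 and 20.5 CPM in WT and at 62.9, 78 and 86 in TKO_40h. It was at 64.9, 49.9 and 61.1 in TKO_48h and at 41.7, 43.8 and 38.6 in TKO_96h, so that it stayed above WT at a smaller distance with longer priming. Its average was 1.67 (SE 0.16, adjusted p = 1.6e-06).

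Lists of imprinted genes moved little as a whole. Calls covered 19% of the maternal and 12% of the paternal list, against 7.85% of all tested genes. Of the 21 tested genes expressed from the maternal copy, Cdkn1c and Grb10 rose and Ppp1r9a and Ampd3 fell in the average, with a list median of 0.04. Of the 25 tested genes placed on the paternal list, Plagl1, a zinc finger transcription factor, rose at each time, and Sgce and Copg2 fell, with a median of -0.08. Which copy was active was not measured here, so the placing of Copg2 and the other genes rests on the lists alone. Plagl1 was at 5.90, 6.01 and 7.74 CPM in WT and at 12.8 to 25.7 in TKO, an average of 1.44 (SE 0.24, adjusted p = 0.00081), with a value at each time between 1.20 and 1.61. With effective lengths as an offset, however, the value for Plagl1 was -0.03 (adjusted p = 0.99). Sgce, a sarcoglycan gene, was called in the average from TKO_96h: it stood at 4.38 to 6.33 CPM there, and its log2 fold change was -0.10 at 40 h, 0.07 at 48 h and -2.32 at 96 h.

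Dcdc2a was among the larger increases. It was counted at 2.11, 1.74 and 2.35 CPM in WT, 10.4, 9.70 and 15.6 in TKO_40h, 8.07, 10.4 and 6.11 in TKO_48h, and 18, 12.6 and 18.2 in TKO_96h. Its average was 2.49 (SE 0.30, adjusted p = 3.2e-05), and the call at each time held whichever library was left out. Klhl13 (ENSMUSG00000036782.13, chrX:23219271-23365082), an X-linked adaptor of a CUL3 ubiquitin ligase, had 20.9, 21.6 and 19.6 CPM in WT. Its lowest, median and highest TKO libraries were at 40.9, 64.1 and 101 CPM, an average of 1.61 (SE 0.14, adjusted p = 7.8e-07). The distance of Klhl13 from WT narrowed with priming, from 2.01 at 40 h to 1.70 at 48 h and 1.13 at 96 h on the log2 scale.

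Among members with at least 5 CPM, the largest increase was that of Sox18, a SOX-family transcription factor of developing vessels. It was nearly absent in WT, at 0, 1.07 and 0.138 CPM, and reached 2.53 to 7.45 in TKO at 40 h, 6.02 to 12.7 at 48 h and 2.11 to 5.28 at 96 h, an average of 3.75 (SE 0.72, adjusted p = 0.003). Among the 11 tested endothelial and blood markers, Sox18 and Cdh5, the cadherin of vessel walls, rose and none fell, and the summed level of the 12 markers was 78.1 to 98.3 CPM in WT and 80.3 to 121 in TKO. Most of that sum was Pecam1, at 62.2 to 82.8 CPM in WT and 54.0 to 75.8 in TKO, which pluripotent cells also express. Cdh5 stayed at 0 to 0.133 CPM in WT and at 0.132 to 4.28 in TKO, and Tie1 at 0.132 to 1.46 CPM in all 12 libraries. Tek (3.45 to 4.67 CPM in WT, 2.92 to 12.3 in TKO) and Sox17 (0.553 to 1.11, 0.266 to 8.07) spanned both sides of WT. Kdr stood at 0.967 to 1.67 CPM in WT and 1.06 to 4.29 in TKO, and Lmo2 at 0.138 to 1.89 and 0.415 to 4.81. The median of the 11 tested markers was 0.85 in the average, against -0.02 over all tested genes. At 40, 48 and 96 h that median was 0.97, 1.38 and 1.06. Whether cells of another type took part in the rise of Sox18 was not tested.

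Ankrd45, Anxa1, Slc35d3, Smtnl1, Cilp2 and Lgals9 were likewise low in WT, at no more than 4.14 CPM in any WT library. Ankrd45, an ankyrin-repeat gene, rose by an average of 2.54 (SE 0.41) to between 4.70 and 22.8 CPM. Anxa1, a calcium-dependent membrane-binding protein, stood at 1.22, 0.667 and 1.24 CPM in WT and at 2.94 to 7.22 in TKO, an average of 2.37 (SE 0.45, adjusted p = 0.0026). That of Anxa1 was 1.43 with the effective length offset and was then no longer called (adjusted p = 0.15). Lgals9, a galectin that binds sugars on cell surfaces, went from 1.87 to 2.76 CPM in WT to 4.2 to 11.1 in TKO (average 1.83, SE 0.34). Smtnl1, a smoothelin-like muscle protein, was highest in TKO_96h, at 15.1 to 21 CPM against 2.63 to 3.67 in WT. Slc35d3, a membrane transporter, kept its call at each time in 3 of the 12 fits without 1 library, the fewest of the 12 largest increases.

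Vmn1r88, annotated as a vomeronasal receptor gene, rose by 1.48 (SE 0.17), but 25.5% of its 31-base words also occur in other genes, and its exons overlap Gm4879, so its reads may belong elsewhere. The largest fitted change among the 107 belonged to Tlx3, a homeobox gene below the 5 CPM needed for naming, chosen here after its values were seen. Its 3 WT libraries held 1 count in all and its 9 TKO libraries 93, a ratio of CPM of 33.9 (exact 95% interval 5.94 to 1350, counting error only). The call of Tlx3 at each time held in 2 of the 12 fits without 1 library, its average was not called without WT replicate 2 (adjusted p = 0.11), and DESeq2 gave it no adjusted p. Gm12397, a processed pseudogene with 2.94, shares all of its 31-base words with 1 other gene, Kdm2b.

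At higher levels, increases were smaller. Actg1, the gene of cytoplasmic gamma actin, stood at 586, 618 and 663 CPM in WT and at 779, 1130 and 1310 in the lowest, median and highest TKO library, an average of 0.80 (SE 0.11, adjusted p = 0.00013), although 57.1% of its 31-base words occur in other genes. L3mbtl2 (ENSMUSG00000022394.14) went from 136, 125 and 110 CPM in WT to 195 to 288 in TKO, an average of 0.89 (SE 0.11, adjusted p = 3.2e-05), with 0.97, 0.96 and 0.75 at the 3 times. Of 30 tested genes of PRC1.6 and related repressors of germline genes, L3mbtl2 alone was called and none fell, with a list median of -0.02. That share of 3.33% compares with 7.85% of all tested genes. Noct, a circadian phosphatase, rose by 0.62 (SE 0.08), from 241 to 278 CPM in WT to 328 to 471 in TKO. Eif2s2, a subunit of the initiation factor eIF2, rose by 0.53 (SE 0.09), Lrrc59, a membrane protein of the endoplasmic reticulum, by 0.55 (SE 0.09) and Gnai2, an inhibitory G protein subunit, by 0.54 (SE 0.08).

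Of the remaining genes that stayed called in every fit, 3 were chosen for description after their values were seen. Calcoco2, an autophagy receptor, stood at 33.1, 26.8 and 35 CPM in WT, 57.8 to 81.1 in TKO at 40 h, 76.4 to 86.4 at 48 h and 102 to 137 at 96 h, an average of 1.48 (SE 0.13, adjusted p = 7.8e-07), with 20.2% of its words shared with other genes. Aard went from 24.3, 28.8 and 29.6 CPM in WT to between 40.8 and 114 in TKO. Acaa2, the thiolase that closes each cycle of fatty acid oxidation in mitochondria, went from 23.5, 12.1 and 12.4 CPM in WT to between 30.9 and 49.9 in TKO, an average of 1.26 (SE 0.19). Of the other members, 3 more were chosen after their values were seen. Acadvl, the very-long-chain acyl-CoA dehydrogenase, rose by 1.23 (SE 0.17) and Pnpla2, the triglyceride lipase ATGL, by 0.98 (SE 0.17). Mlxipl, a glucose-sensing transcription factor of fat synthesis, rose by 1.18 (SE 0.20), but stood at 0.93 with the effective length offset, not called (adjusted p = 0.33).

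Among members outside the targeted genes, Prmt8 and Irx3 fell most. Prmt8, an arginine methyltransferase of brain and pluripotent cells, stood at 35.3, 33.0 and 29.8 CPM in WT, at 5.25, 8.64 and 10.6 in TKO_40h, 9.96, 12.3 and 14.2 in TKO_48h and 1.36, 0.70 and 5.28 in TKO_96h. The average was -2.38 (SE 0.29, adjusted p = 3e-05), and the drop was deepest at 96 h. Irx3, an Iroquois homeobox gene, stood at 14.4, 18 and 17.3 CPM in WT and at 0.70 to 6.82 in TKO, an average of -2.04 (SE 0.29, adjusted p = 0.00016), in the same order over the priming times as Prmt8. Neither call at each time was firm: Irx3 kept it in 4 and Prmt8 in 6 of the 12 fits without 1 library.

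Tenm3 and Foxp1 were the untargeted lower genes that stayed called at each time in every fit, although their 3 TKO times were called different (adjusted p = 0.0048 and 0.0028). Tenm3 stood at 108, 117 and 113 CPM in WT, 56.1 to 66.8 in TKO at 40 h, 51.5 to 63.9 at 48 h and 29.3 to 47.2 at 96 h, an average of -1.11 (SE 0.11, adjusted p = 3.3e-06). Foxp1 (ENSMUSG00000030067.17, chr6:98925338-99522721), a forkhead repressor with splice forms linked to pluripotency, stood at 224, 251 and 222 CPM in WT, 151 to 155 in TKO at 40 h, 111 to 115 at 48 h and 102 to 117 at 96 h. Its average was -0.90 (SE 0.08, adjusted p = 5.3e-07). Sfrp2, a secreted inhibitor of WNT ligands, fell by about the same amount at each time, with -1.05, -0.99 and -0.93, from 37.1, 39.0 and 39.4 CPM in WT to 14.9 to 25.3 in TKO. With the effective length offset Sfrp2 stood at -0.77 and was not called in the average (adjusted p = 0.11).

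Igf1r, the receptor for insulin-like growth factors, went from 55.4, 74.5 and 69.8 CPM in WT to 16.6, 29.4 and 41.4 in the lowest, median and highest TKO library, an average of -1.21 (SE 0.13, adjusted p = 1.3e-05). Vcan, a large matrix proteoglycan, fell by 1.25 on the log2 scale (SE 0.12), but with the effective length offset it stood at -0.97 and was not called (adjusted p = 0.11). Map1b, which binds microtubules, stood at 416, 524 and 509 CPM in WT and at 164, 253 and 377 in the lowest, median and highest TKO library, with -0.51, -0.93 and -1.39 at 40, 48 and 96 h. Flna, an actin crosslinker, followed the same order, with -0.44, -0.63 and -1.22. Epha2, an ephrin receptor kinase, went from 260 to 296 CPM in WT to 148 to 223 in TKO (average -0.53, SE 0.09), and Alms1, a centrosome and basal body protein, from 252 to 293 to 170 to 220 (-0.46, SE 0.09).

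Nhs, a regulator of actin remodelling, held nearly 1 value at all 3 times, with -1.13, -1.13 and -1.21, from 22.7 to 43.3 CPM in WT to 10.7 to 18.3 in TKO. Eif4g3, a scaffold of translation initiation, went from 76.6 to 89.3 CPM in WT to 16.8 to 55.0 in TKO, an average of -1.13 (SE 0.13). Atxn1l, a partner of the repressor Capicua, went from 31.8 to 46.6 CPM in WT to 10.3 to 27.6 in TKO. Its average was -1.22 (SE 0.15), and -1.17 with the effective length offset, no longer called (adjusted p = 0.14). Uba1y, the Y-linked copy of the ubiquitin-activating enzyme, fell by 1.48 on the log2 scale (SE 0.19), from 29.6, 29.9 and 34.1 CPM in WT to means of 16.5 (SD 2.35, n = 3), 12.8 (SD 4.03) and 6.65 (SD 2.24) in TKO at 40, 48 and 96 h. Of its 31-base words 60.7% are shared with other genes, and of the 18 tested genes on the Y chromosome 6 fell and none rose, with a median of -0.50, against medians of -0.07 to 0.03 on the other chromosomes.

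**Figure D3:**
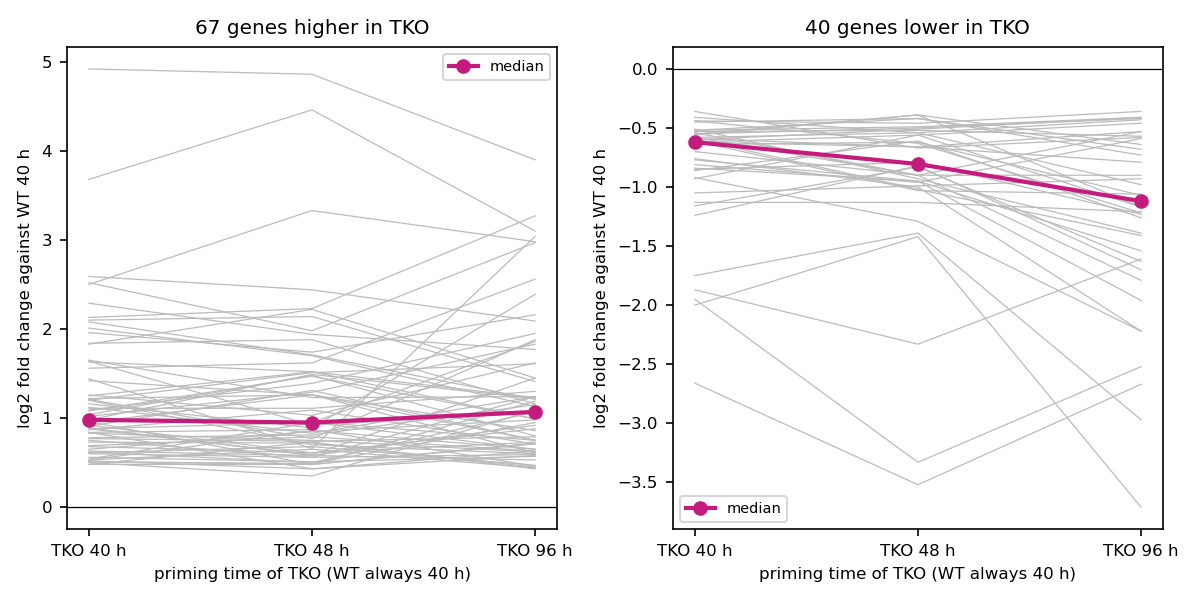
Log2 fold change against WT at each priming time of TKO for the 67 members higher in TKO (left) and the 40 lower (right); each grey line is 1 gene and the magenta line the median. The median was 0.98, 0.95 and 1.07 for the higher genes and -0.62, -0.80 and -1.12 for the lower ones at 40, 48 and 96 h.

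Calls at every time did not mean equal change. The TKO times were called different for 41 of the 107 genes and not for 66. Among the 67 higher genes the largest of the 3 changes fell at 40 h for 17, at 48 h for 20 and at 96 h for 30. The 40 lower genes leaned further toward long priming, with 5 at 40 h, 10 at 48 h and 25 at 96 h. The median of the lower genes was -0.62 at 40 h, the only time at which priming was matched to WT.

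Gene lists of pathways and cell states show which parts of the average moved at all 3 times. Beside each list's count stands the share over all tested genes called in the average, 7.85%, with 3.43% higher and 4.42% lower. Of 33 hypoxia and glycolysis genes, 23 fell in the average and none rose, the largest share of any list, with a median of -0.73. Only 4 of the 23 (Slc2a1, Pfkp, Pdk1 and Bnip3l) had 1 sign at all 3 times, and none was called at each. The list's median was -0.24 at 40 h, 0.31 at 48 h and -2.11 at 96 h. Bnip3, a mitophagy receptor induced by low oxygen, stood at 214 to 238 CPM in WT, 164 to 215 in TKO at 40 h, 287 to 330 at 48 h and 8.84 to 14.8 at 96 h. Its average of -1.40 (adjusted p = 8.7e-08) was 0.05 once TKO_96h was left out (adjusted p = 0.89). P4ha1, a collagen prolyl hydroxylase (0.01), the oxygen sensor Egln3 (0.10) and the membrane-binding Anxa2 (0.10) likewise lost their negative sign without TKO_96h.

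**Figure D4:**
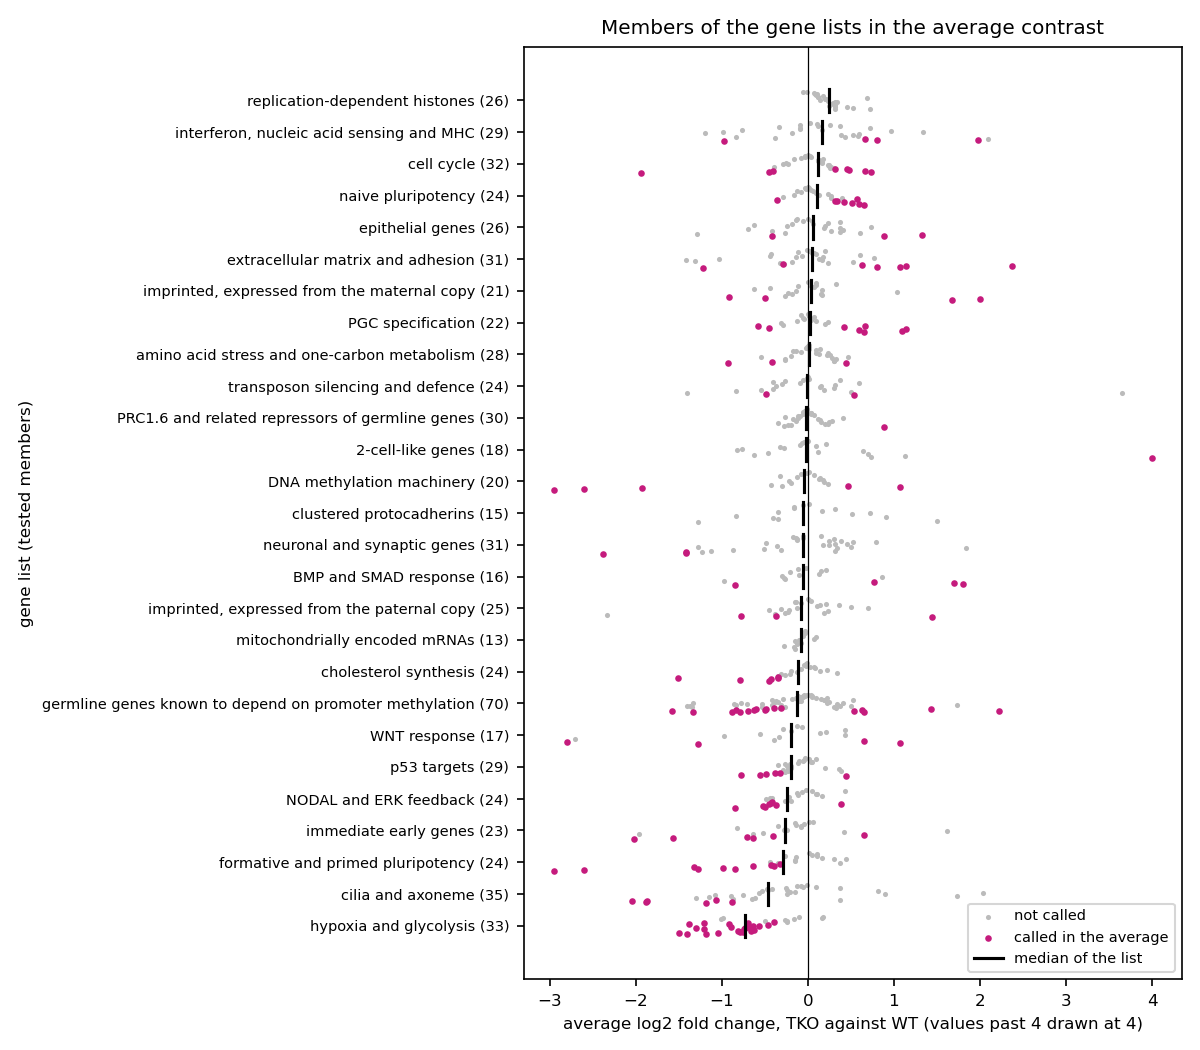
Average log2 fold change of TKO against WT (horizontal axis) for the tested members of 27 gene lists (rows, with the number tested); magenta points are called genes, grey points are not, and black ticks are list medians. Hypoxia and glycolysis has the lowest median, -0.73, and replication-dependent histones the highest, 0.25, with no member called.

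Naive pluripotency genes rose more often than they fell, 7 against 1 of 24 tested, all with 1 sign at the 3 times. The median of all 24 was 0.11 in the average, and 0.02 at 40 h, 0.14 at 48 h and 0.42 at 96 h. Zfp42 (ENSMUSG00000051176.6), the naive marker REX1, was the only one called at each time. It stood at 415, 343 and 336 CPM in WT, 503 to 529 in TKO at 40 h, 437 to 500 at 48 h and 731 to 808 at 96 h, an average of 0.65 (SE 0.09, adjusted p = 8e-05). Tfcp2l1 rose by 0.60 (SE 0.10), Dppa2 by 0.51 (SE 0.10) and Sall4 by 0.42 (SE 0.09), and Nanog by 0.32 (SE 0.09). Nr5a2, an orphan nuclear receptor, fell by 0.36 on the log2 scale.

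Formative and primed pluripotency genes moved the other way in the average, with 10 of 24 falling, none rising and a median of -0.29. That median was -0.04 at 40 h, where priming was matched to WT, -0.3 at 48 h and -0.62 at 96 h. Of the 10, 2 are the targeted Dnmt3a and Dnmt3b, and 7 had 1 sign at all 3 times. Sfrp2 was called at each time. Lef1, a WNT effector, stood at 118 to 138 CPM in WT and at 111 to 138 in TKO_40h, overlapping WT, then at 75.7 to 92.3 in TKO_48h and 9.96 to 18.9 in TKO_96h, so that its average of -1.27 (adjusted p = 2.2e-06) was -0.38 without TKO_96h (adjusted p = 0.13). Lefty1, a NODAL antagonist, fell by 0.85 on the log2 scale (SE 0.12), with -0.56, -0.50 and -1.51. The list of NODAL and ERK feedback genes, which shares Lefty1, had 7 of 24 lower, all of 1 sign, and 1 higher, with a median of -0.24. At 40, 48 and 96 h the median of this list was -0.13, -0.06 and -0.6. Nodal itself, the TGF-beta ligand, fell by 0.43 on the log2 scale (SE 0.12), and Skil, a SMAD repressor, by 0.50 with 1.33 of decline at 96 h against 0.11 and 0.06 earlier.

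Of the 70 tested germline genes known to depend on promoter methylation, 5 rose and 12 fell in the average, with a median of -0.12. At 40, 48 and 96 h the list's median was -0.01, -0.16 and -0.43. Meioc, needed for meiotic prophase, stood at 42.4, 51.7 and 45.0 CPM in WT, 21.9 to 30.3 in TKO at 40 h, 19.8 to 26.8 at 48 h and 7.78 to 11.5 at 96 h, an average of -1.33 (SE 0.15, adjusted p = 1.4e-05). Sohlh2, a germ cell transcription factor, went from 72.5 to 89.3 CPM in WT to 38.1 to 64.1 in TKO (average -0.79, SE 0.12), and it too was called at each time. Stra8, the retinoic acid-induced gate to meiosis, went from 119 to 132 CPM to 38.2 to 99.3 (average -0.88, SE 0.12) and was called in the average, at 48 h and at 96 h, but not at 40 h (adjusted p = 0.082). Those that rose were Zfp42, Tex19.1, Rpl10l and the X-linked homeobox genes Rhox6 and Rhox9. Rhox6 had a mean of 1.41 CPM (SD 1.09, n = 3) in WT and of 7.05 over the TKO groups, an average of 2.22 (SE 0.46, adjusted p = 0.0054). Transposon silencing and defence genes had 1 higher (Tex19.1) and 1 lower (Mov10l1) of 24, with a median of -0.01, and 2-cell-like genes 1 higher (Pramel6) of 18. Both shares, 8.33% and 5.56%, were near the 7.85% of all tested genes.

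Primordial germ cell specification genes had 6 of 22 higher and 2 lower, with a median of 0.03. Dppa4, a chromatin-bound partner of Dppa2, rose at each time, from 86.9 to 91.1 CPM in WT to 114 to 198 in TKO, an average of 0.65 (SE 0.10, adjusted p = 0.00028), with 44.3% of its 31-base words shared with other genes. Dppa3 (Stella), a germ cell marker that shields the oocyte genome, had a mean of 16.7 CPM (SD 3.81, n = 3) in WT and 46.1 to 57.0 in TKO at 40 h, 39.2 to 60.6 at 48 h and 17.1 to 21 at 96 h, which overlaps WT. Its log2 fold changes were 1.63, 1.5 and 0.15. Itgb3 (CD61), an integrin used to sort germ cell-like cells, rose by 1.14 (SE 0.24), and Kit, the SCF receptor, fell by 0.45 on the log2 scale (SE 0.12). Prdm1 (BLIMP1), the germline determinant, was called lower in the average (-0.58, adjusted p = 0.048) but had 0.23 at 48 h.

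BMP and SMAD response genes had 3 of 16 higher and 1 lower. Bmp4, an inducer of germ cells, rose by 0.77 (SE 0.21), from 6.63 to 14.8 CPM in WT to 15.5 to 21.5 in TKO, but had 0.00 with the effective length offset. Id2, a BMP target, fell by 0.85 on the log2 scale (SE 0.18). Hand1, a transcription factor of trophoblast and early mesoderm, stood at 1.33 to 2.76 CPM in WT, 7.88 to 13.7 in TKO at 40 h, 9.45 to 13.2 at 48 h and 1.85 to 4.76 at 96 h. The summed level of 12 trophoblast markers, which include Hand1 itself, was 62.5 to 90.4 CPM in WT. In TKO it was 118 to 133 at 40 h, 145 to 153 at 48 h and 57.5 to 61.9 at 96 h. Krt8 (16.4 to 21.1 CPM in WT, 2.11 to 51.5 in TKO) and Krt18 (4.79 to 17.2, 1.4 to 39.3) reached the highest TKO levels. Both are also on the epithelial list, so the sum is not specific to trophoblast. The part of the other markers in the result for Hand1 was not tested. WNT response genes had 2 higher (Notum and Myc) and 2 lower (Lef1 and Wnt3) of 17, with a median of -0.19.

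Sums of other marker lists lay apart from WT at some priming times. The surface ectoderm sum was 642 to 675 CPM in WT, 853 to 903 in TKO at 40 h, 677 to 864 at 48 h and 538 to 557 at 96 h, above WT at the shorter times and below it at 96 h. Most of that sum was Cdh1, at 432 to 482 CPM in WT and 360 to 592 in TKO, a gene that the epithelial list also holds. Krt5, Krt14, Krt15, Tfap2b, Trp63 and Dlx5 stayed at 3.78 CPM or less in all 12 libraries. Grhl3 was above WT in every TKO library, at 27.5 to 35 CPM in WT and 39.3 to 56.9 in TKO. Grhl2 (23.8 to 34.5 CPM in WT, 24.4 to 76.4 in TKO) overlapped WT and reached above it. Epcam (87.2 to 103, 50.5 to 146), Esrp1 (21.4 to 28.8, 6.33 to 58.2) and Cldn4 (11.9 to 14.8, 7.98 to 31.4) spanned both sides of WT. The endoderm sum was 106 to 159 CPM in WT and 177 to 238 in TKO_40h, with no overlap, and the later times (131 to 168 and 82.7 to 150) overlapped WT. The neural sum was 165 to 185 CPM in WT and overlapped it until TKO_96h, at 236 to 266. The mesoderm sum was 15.4 to 20.7 CPM in WT. In TKO it was 20.6 to 27.6 at 40 h, 18.3 to 30.4 at 48 h and 11.9 to 21.4 at 96 h. Of its markers, Msgn1 was at 0 in all libraries and Tbx4 at 8.68 to 14.4 CPM in WT and 3.08 to 10.9 in TKO. Isl1 (0 to 0.138 in WT, 0.349 to 3.26 in TKO) did not overlap, and Pdgfra stood at 2.8 to 3.56 and 3.34 to 12.7. The median of the 7 tested mesoderm markers was 1.04 in the average, against -0.02 over all tested genes. At 40, 48 and 96 h that median was 1.49, 1.59 and 0.29. The part of these marker levels in the other results was not tested. Of the lists' members, Lama1, a laminin chain of basement membranes, was called at each time, with an average of 1.07 (SE 0.17). Extracellular matrix and adhesion genes had 5 of 31 higher and 2 lower, and those called at each time were Lama1, Anxa1 and S100a10, a partner of annexin A2, which rose by 0.80 (SE 0.14). Of 26 epithelial genes 2 rose and 1 fell, among them the tight junction gene Ocln, called at each time, with a mean of 15 CPM (SD 3.68, n = 3) in WT and 20.7 to 38.1 in TKO (average 0.89, SE 0.18), but not with the effective length offset (0.71, adjusted p = 0.093).

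Cell cycle genes had 5 of 32 higher and 3 lower, with a median of 0.12. Ccne1, the cyclin of S phase entry, rose at each time, from 93.3 to 101 CPM in WT to 107 to 223 in TKO, an average of 0.73 (SE 0.11, adjusted p = 0.00037). Ccnd2, a cyclin of early G1, fell by 1.94 on the log2 scale (SE 0.18), from 49.2 to 88.9 CPM to 20.1 to 44.5 in TKO_40h and TKO_48h and to 3.62 to 5.46 in TKO_96h. Of 29 p53 targets, 5 fell and 1, Trp53 itself, rose. Immediate early genes had 5 lower and 1 higher of 23, but only Klf10 among the lower ones had 1 sign, and Fosb, an AP-1 subunit, had 0.68 at 40 h and -3.02 and -3.73 later.

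Of 35 tested cilia and axoneme genes, 6 fell and none rose, all 6 with 1 sign, and the list's median was -0.46. Dnah8, an axonemal dynein heavy chain, stood at 115 to 122 CPM in WT and at 18.3, 70.6 and 122 in the lowest, median and highest TKO library, an average of -1.18 (SE 0.13). Dnah10 went from 7.05 to 11.7 CPM to 0.698 to 4.40 (average -1.88, SE 0.39), and Rfx3, a regulator of ciliary genes, from 28.2 to 33.7 to 7.25 to 27.6. Neither was called with the effective length offset (adjusted p = 0.25 for Dnah10 and 0.38 for Rfx3). Cholesterol synthesis genes had 6 of 24 lower and none higher, 5 of them of 1 sign, among them the lanosterol synthase gene Lss at -0.45 (SE 0.10), and a median of -0.11. Neuronal and synaptic genes had 3 of 31 lower, amino acid stress and one-carbon genes 1 of 28 higher and 2 lower, and interferon, nucleic acid sensing and MHC genes 3 of 29 higher and 1 lower. The shares called in these lists were 9.68%, 10.7% and 13.8%, against 7.85% of all tested genes. No member was called in the average among 15 clustered protocadherins, 13 mitochondrially encoded mRNAs or 26 replication-dependent histones.

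**Figure D5:**
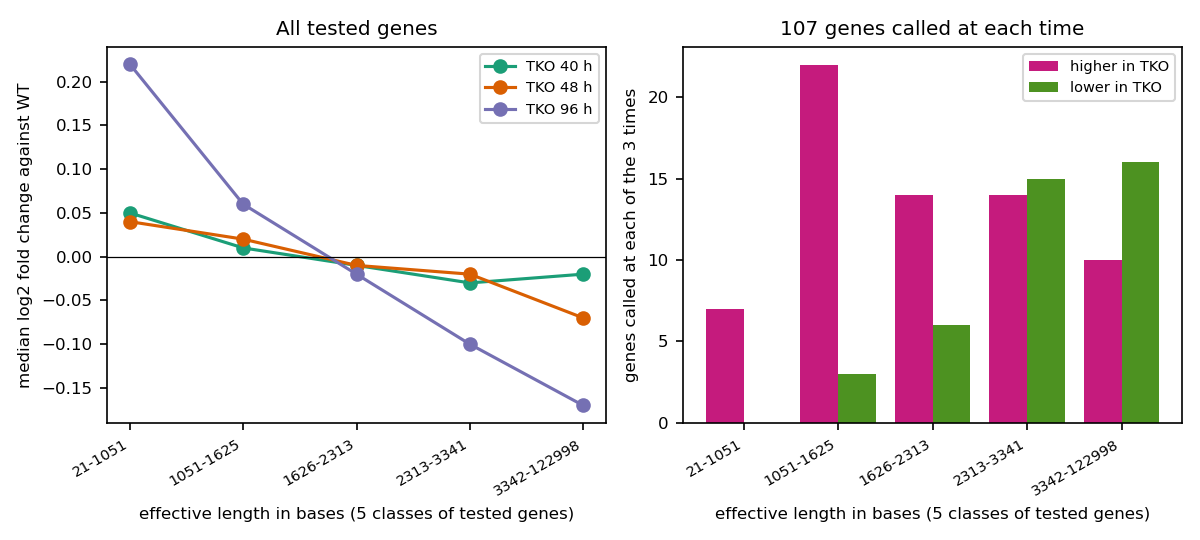
Left, median log2 fold change against WT at each priming time (vertical axis) by 5 classes of effective length in bases, each with a like number of genes, for all tested genes; right, number of the 107 genes called at each time per length class, as bars for higher and lower genes. The median for TKO_96h runs from 0.22 in the shortest to -0.17 in the longest class, and lower genes number 0 in the shortest and 16 in the longest.

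Gene length moved with the direction of change. The median effective length, the stretch of a transcript from which a fragment can start, was 1948 bases over all tested genes, 1848 over the 67 higher members and 2632 over the 40 lower ones. Over 5 classes of tested genes from short to long, the lower members numbered 0, 3, 6, 15 and 16 and the higher ones 7, 22, 14, 14 and 10. Over all tested genes the median of the average was 0.09 in the shortest class and -0.10 in the longest. At 96 h these medians were 0.22 and -0.17, at 48 h 0.04 and -0.07 and at 40 h 0.05 and -0.02. The effective length offset scales each gene's length by its own mean over libraries, so it cannot test a trend between short and long genes. The part of this trend in the members' calls was not tested. The offset kept the average call of 80 of the 107 members, and not all that lost it are named in this text. Among genes named above, beside those given with their values, it ended the average calls of the members Cbl and Stox2. Outside the members it ended those of Uhrf1, Nanog, Nr5a2, Tfcp2l1, Sall4, Nodal, Prdm1, Hand1, Wnt3, Myc, Notum, Ccnd2, Dnah8, Tex19.1, Mov10l1, Rhox9, Rpl10l, Pramel6, Gla, Sgce, Copg2, Ppp1r9a and Ampd3.

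Some average calls named above also ended without 1 WT library, given here with the adjusted p of that fit. Without WT replicate 1 these were Copg2 (0.17), Ppp1r9a (0.084) and Dnah10 (0.052). Without WT replicate 2 they were Sall4 (0.084), Nanog (0.19), Nr5a2 (0.23), Nodal (0.19), Wnt3 (0.18), Hand1 (0.053), Trp53 (0.053), Mov10l1 (0.2), Rhox9 (0.15), Rpl10l (0.11), Pramel6 (0.053) and Dlx3 (0.086). Without WT replicate 3 they were the members Cbl (0.12) and Slc35d3 (0.061), and Ampd3 (0.11), Itgb3 (0.056), Id2 (0.062), Bmp4 (0.19), Notum (0.13), Myc (0.19), Prdm1 (0.27), Klf10 (0.071), Cdh5 (0.16), Rfx3 (0.052), Lss (0.062) and Gla (0.051). Each gene is given for the WT library whose loss gave the largest adjusted p, and all kept their direction.

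Members mostly lay apart from each other on the genome. Within 1000000 bases there were 4 pairs. Zfp296 and Apoc1, 108825 bases apart on chromosome 7, both rose, by 0.92 and 1.11. Prmt8 and Tulp3 on chromosome 6 and Stox2 and Tenm3 on chromosome 8 fell together, and Map1b and Ocln on chromosome 13 moved in opposite directions. Exons of 15 members overlap another listed gene, such as Gm14523 for Klhl13, Gm20696 for Foxp1 and Chadl for L3mbtl2, and 11 members share over 20% of their 31-base words with other genes, so their counts are less certain. The shared part rounded to 0.0% for 56 members, and among these Cdkn1c and Klhl13 shared no word.

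Some genes were called in the average through values that vary widely among libraries. Rpl30-ps9, a ribosomal pseudogene, had the most negative average, -6.50, but stood at 28.9, 15.0 and 5.94 CPM in WT, at 0 to 0.133 in TKO_40h, at 0 in all of TKO_48h and at 0, 0 and 18.5 in TKO_96h. Gla, the X-linked alpha-galactosidase, stood at 7.21 to 12.9 CPM in WT, at 10.6, 0 and 10.1 in TKO_40h and at 0 in TKO_48h. Neither was called in the robust fit (adjusted p = 0.086 for Rpl30-ps9 and 0.12 for Gla). Loxl2, a lysyl oxidase-like enzyme of the matrix, had 107 to 120 CPM in WT, 63.9 to 73.0 in TKO at 40 h, 110 to 130 at 48 h and 1.71 to 4.23 at 96 h, so that its average of -1.98 (adjusted p = 2e-09) was -0.33 without TKO_96h (adjusted p = 0.14). Ndufa4l2 and Dlx3 had the same order, with -5.53 and -5.76 at 96 h.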

How the data were processed

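RNA from 12 PGCLC cultures was sequenced as stranded total RNA libraries, per the labels' protocols. For each transcript the authors deposited an estimated count (expected count). The submitters' processing notes name kallisto for quantification, Trim Galore 0.6.2 for trimming, and the build GRCm38 (mm10). The version of kallisto, its transcript set and its strand setting are not given here by any source. The deposited effective lengths in bases were used for one alternative. Of 119414 transcripts, 116728 matched GENCODE M21 by Ensembl ID without version. Their counts were summed per gene and rounded; 2.68 to 4.32% of counts lay in unmatched transcripts.

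Genes were filtered with filterByExpr (minimum count 10, minimum total 15) and fitted in edgeR 4.0.16 with TMM and a quasi-likelihood model of all 12 libraries with 1 mean per group (R 4.3.3). The contrast is the mean of the 3 TKO log2 means minus WT. SE was taken as the size of the log2 fold change over the root of its F statistic, and CPM use TMM library sizes. Replicates are labelled biological; the labels do not say what they share. PCR copies carry no molecular identifiers.

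The members, 27 gene lists and marker lists were chosen with earlier results of these data known. Named by rule, among genes called at each time with at least 5 CPM, no overlap and no predicted-gene symbol, were the 12 largest increases and decreases and the 6 of highest CPM per direction. Added were up to 4 called genes per list (the highest in CPM where none), the 4 Dnmt genes and the 6 called genes whose changes range most widely. Other genes named were chosen after their values were seen. Same-numbered libraries did not deviate together (correlations -0.061 to 0.053 over 18 pairs), so replicate numbers were not used as pairs. Fits were tested on simulated data. Alternatives left out each library, scaled by RLE, used DESeq2 1.42.0, dropped the filter, fitted robustly, blocked on replicate number or offset by effective length; others used 1 mean for all TKO libraries, the average without each time, a minimum fold of 1.5 and an adjusted p below 0.01. Python 3.11.15, pandas 2.3.3 and matplotlib 3.10.9 were used for tables and plots.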

Additional observations from a re-analysis of the deposited data

Results flagged for a closer look

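For 22 of the named genes called at each time, the 3 TKO groups also differed among themselves by the F-test between priming times, so the size of the difference from WT depends on the priming time although its sign does not. WT was primed for 40 h only, so these gaps rest on the TKO groups. The gap between the largest and the smallest of the 3 log2 fold changes was 2.28 for Prmt8, 1.58 for Irx3, 1.5 for Vmn1r88, 1.46 for Meioc, 1.38 for Dnmt3b and 1.30 for Uba1y. It was 1.19 for Atxn1l, 1.08 for Eif4g3, 0.99 for Smtnl1, 0.88 for Klhl13 and Vcan, and 0.87 for Grb10, Dnmt3a and Map1b. Smaller gaps were those of Igf1r (0.80), Flna (0.78), Zfp42 (0.74), Dnmt1 (0.73), Ccne1 (0.56), Foxp1 (0.46), Dppa4 (0.46) and Noct (0.40). Grb10, Klhl13 and Noct were farthest from WT at 40 h, the 3 Dnmt genes at 48 h and the other 16 at 96 h.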

How the results depend on the processing

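Without 1 library at a time, the average called 514 to 1799 genes (1270 with all), 454 to 1611 had 1 sign at all 3 times (1137), and 42 to 151 were called at each time (107). The separate comparisons called 181 to 667 genes at 40 h, 396 to 1540 at 48 h and 2084 to 3447 at 96 h, and the test between TKO times 2709 to 3556. Each of these counts was lowest without a WT library, except that between TKO times. With the effective length offset the average called 360 genes, 320 had 1 sign, 16 were called at each time, and the separate comparisons called 75, 238 and 1466 genes and that between times 1616; Plagl1 reversed to -0.03. DESeq2 gave 169 genes called at each time and 780 at 40 h, and no filter on low counts 177 and 787. With 1 mean for all 9 TKO libraries, whose spread then includes the priming times, 81 genes were called, and 69 of the 107 remained called. Without TKO_96h the average called 595 genes, with P4ha1 at 0.01, Bnip3 at 0.05, Egln3 at 0.10 and Anxa2 at 0.10, each reversed. A minimum fold of 1.5 left 575 genes of 1 sign, and an adjusted p below 0.01 in each comparison 27 called at each time. The cause of these changes was not tested. RLE factors, the robust fit and the averages without TKO_40h or TKO_48h kept every count within 1.5 times.

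With the replicate number as a block, 1338 genes were called in the average, 1195 had 1 sign and 115 were called at each time, 101 of them among the 107. The separate comparisons called 520, 1000 and 3145 genes, and the test between times 3506. Among the named genes, the block ended the calls of Ovol2 (1.31, adjusted p = 0.055) and Nr5a2 (-0.36, adjusted p = 0.052).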
